A study of Mus musculus with 16 samples.

Results

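The 10 genes described here belong to hepatic nitrogen metabolism and were measured in 4 groups of mouse liver. They comprise the 5 enzymes of the urea cycle (*Cps1*, *Otc*, *Ass1*, *Asl* and *Arg1*) and 5 enzymes that release or transfer amino groups (*Hal*, *Sds*, *Gls2*, *Tat* and *Got1*). They were chosen by symbol from a count table of 52143 mouse genes, and all 10 were among the 11324 genes that passed a filter on low counts. RNA was sequenced from the livers of male C57BL6/J mice in 16 libraries, 4 per group, with total counts from 3445949 to 5976449 per library. The mice were 6 weeks old when the diets began, as the study's methods give it. They were kept for 12 weeks on chow or on a high-fat diet (HFD) and were injected under the skin every 2 weeks. The Chow and HFD groups received saline. The Chow/FGFR4 KD and HFD/FGFR4 KD groups received 3 mg/kg of an siRNA against the receptor FGFR4, joined to GalNAc, a sugar that hepatocytes take up through their asialoglycoprotein receptor. The controls therefore received no siRNA of any sequence, and the HFD differed from chow in protein and carbohydrate as well as in fat. Cages were shared, and the labels do not say which mice shared one, so the p-values measure only the spread between these libraries. The questions were which of the 10 transcripts differed between the diets, and whether a knockdown (KD) of FGFR4 changed them on either diet.

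The urea cycle turns ammonia, which is toxic, into urea. Carbamoyl phosphate made by CPS1 joins ornithine through OTC in the mitochondrion, and ASS1, ASL and ARG1 complete the cycle in the cytosol. In the liver lobule these enzymes, with histidase (HAL), serine dehydratase (SDS) and liver glutaminase (GLS2), are known to be richest in hepatocytes near the portal vein, whereas glutamine synthetase (GLUL) is confined to cells around the central vein. Glucagon, glucocorticoids and dietary protein are known to raise many of these transcripts, and tyrosine aminotransferase (*Tat*) is a classical glucocorticoid target. Whole liver was sequenced, so position in the lobule was not measured, and fewer cells of a type cannot be told apart from less RNA per cell.

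Upstream sequences are shown for 3 of the genes, *Tat* and *Hal*, whose levels differed between the diets, and *Otc*, the urea cycle gene that was not called in any comparison. They are the 150 bases before the RefSeq start, in GRCm38.p6, 5′ to 3′ on the strand of the gene, which is the plus strand in all 3. Capitals mark a D-box (TTATGNAA, the site of the PAR bZIP factors DBP, TEF and HLF) in *Otc* and a TATA box read on the other strand in *Hal*.
*Otc*, chrX:10252155-10252304: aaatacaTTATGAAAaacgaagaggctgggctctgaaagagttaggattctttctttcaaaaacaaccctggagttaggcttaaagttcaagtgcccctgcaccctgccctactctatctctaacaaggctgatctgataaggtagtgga
*Hal*, chr10:93488618-93488767: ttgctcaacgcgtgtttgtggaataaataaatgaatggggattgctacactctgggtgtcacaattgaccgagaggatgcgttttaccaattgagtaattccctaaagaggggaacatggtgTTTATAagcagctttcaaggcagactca
*Tat*, chr8:109990286-109990435: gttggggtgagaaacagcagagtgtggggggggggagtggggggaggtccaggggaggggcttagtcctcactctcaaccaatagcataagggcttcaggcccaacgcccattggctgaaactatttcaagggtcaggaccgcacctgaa

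RefSeq promoters (250 bases before to 50 after the start) were at hand for *Otc*, *Ass1*, *Hal*, *Tat* and *Got1*. On either strand, TATAAA was found in 1 of these 5 (*Hal*), against 13.6% of the 32851 promoters in the table. CACGTG, the E-box bound by clock and other basic helix-loop-helix factors, was found in 1 (*Ass1*), against 7.15%, and TTATGNAA in 1 (*Otc*), against 3.38%. The letters TTGCGCAA, TTGNNNCAA (both for C/EBP), TGACGTCA and its shorter form TGACG (for CREB), AGAACA (1 arm of a glucocorticoid response element) and TGAACTTTG (HNF4 type) were in none of the 5. Neither were a full glucocorticoid response element, an HNF4-type direct repeat or an HNF1 site. TGACG overlaps TGACGTCA, and these motifs are held by between 0.00913% and 20.8% of all promoters in the table.

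The knockdown was visible in each KD library. Levels are given as CPM, the share of the TMM-scaled library total that a gene holds. *Fgfr4* (mean ± SD of 4 libraries) fell from 29.7 ± 4.57 to 4.78 ± 1.60 CPM with KD on chow and from 25.7 ± 4.25 to 3.74 ± 1.35 CPM with KD on HFD, and no KD library reached a saline library. One library stood apart. On the first principal component of the 500 most variable genes, which held 46.1% of their variance, HFD/FGFR4 KD 1 scored -6.3. The chow-fed libraries scored from -23.2 to -4.8 and the other HFD-fed libraries from 6.0 to 30.4. Chow/FGFR4 KD 4 had 2378 CPM of the acute-phase transcript *Saa2*, against at most 66.0 CPM in any library of the other 3 groups. Calls of the 10 genes that changed without either library are given with and without it, as are the counts of related genes.

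Levels could be compared between genes only per kilobase of the longest coding transcript. In Chow, *Ass1* was highest at 1525 ± 77.0 CPM per kb. *Cps1* (645 ± 140 CPM per kb), *Tat* (592 ± 87.2 CPM per kb) and *Arg1* (580 ± 32.8 CPM per kb) followed, with ranges of mean ± SD that overlapped. *Asl* stood at 150 ± 8.51 CPM per kb, above *Otc* (115 ± 8.42 CPM per kb) and *Got1* (104 ± 12.7 CPM per kb), which overlapped in their SD. *Gls2* (93.5 ± 1.54 CPM per kb) lay within the SD of *Got1*. *Sds* (65.3 ± 10.4 CPM per kb) and *Hal* (55.9 ± 7.26 CPM per kb) were lowest and did not differ beyond their spread. On HFD, *Arg1* (444 ± 17 CPM per kb) ranked above *Cps1* (351 ± 75.5 CPM per kb) and *Tat* (228 ± 75.8 CPM per kb). Of the 5 urea cycle enzymes together, 0.639% to 0.805% of all counts came in Chow, 0.546% to 0.818% in Chow/FGFR4 KD, 0.473% to 0.624% in HFD and 0.525% to 0.808% in HFD/FGFR4 KD. All counts include the transcript *Gm42418*, which alone held from 13.4% (Chow 3) to 22.7% (Chow 4) in Chow. It held at most 15.6% in HFD (HFD 4), so these groups overlapped, and 22.3% in HFD/FGFR4 KD 1.

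**Figure D1:**
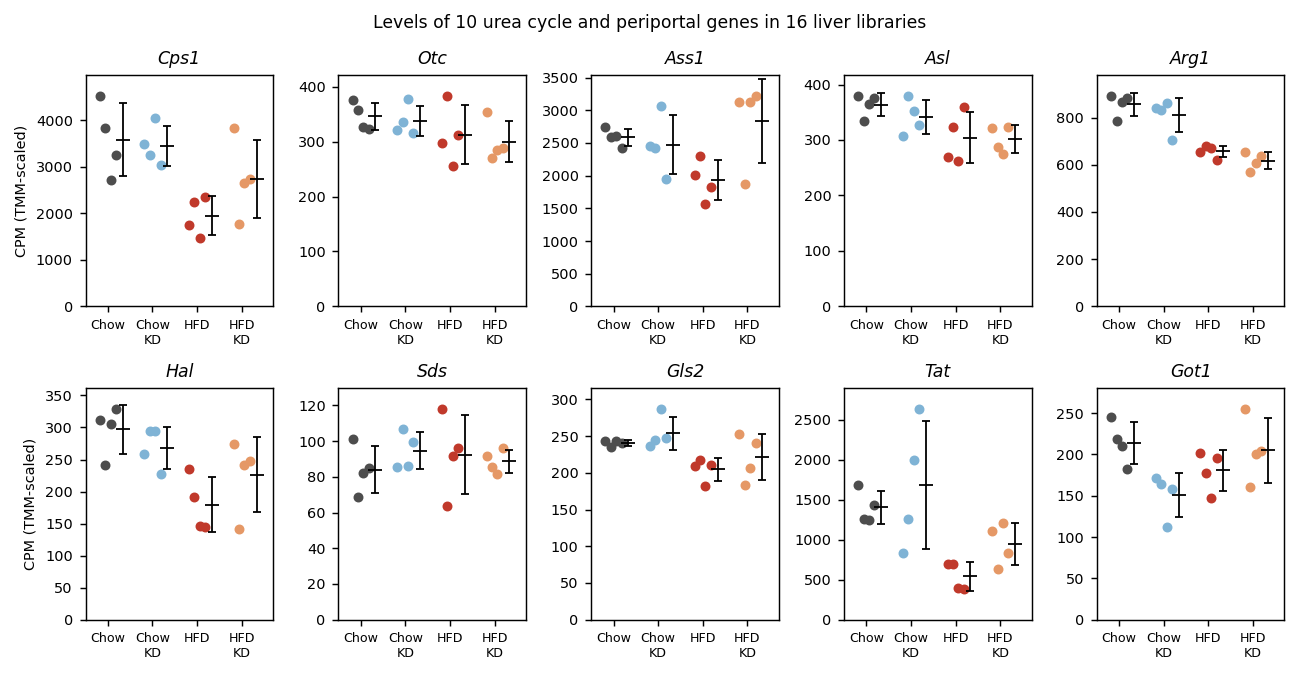
TMM-scaled CPM of each of the 10 genes in each of the 16 libraries, by group, on axes that start at 0; each point is a library and the black mark beside the points is the mean ± SD of 4 libraries. The HFD points of *Cps1*, *Ass1*, *Arg1*, *Hal*, *Gls2* and *Tat* all lie below the Chow points.

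The diet in saline-injected mice was compared first. On HFD, 7 of the 10 genes were called lower than on chow and none was called higher. Calls needed an unadjusted p below 0.05 in limma-voom together with an adjusted p (Benjamini-Hochberg, over all genes tested) below 0.25, the threshold of the study. Of the 11324 genes tested, 26% were called in this comparison, 12.7% lower and 13.3% higher. The median log2 change of the 10 genes was -0.32, against 0.007 over all genes. At an adjusted p under 0.05, 4 of the 10 were called, against 9.2% of all genes.

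*Cps1*, the mitochondrial carbamoyl phosphate synthetase that commits ammonia to the cycle, lies on chromosome 1 at 67123026 to 67231259 (GRCm38). Its level was 4529, 3835, 2723 and 3244 CPM in the 4 Chow libraries and 1746, 2252, 1459 and 2343 CPM in the 4 HFD libraries. Every HFD library was below every Chow library. The fitted level fell by 45.6% (log2 change -0.88, SE 0.208, adjusted p = 0.0148). *Otc*, ornithine transcarbamylase, on chromosome X, was at 376, 357, 327 and 324 CPM in Chow and at 298, 384, 256 and 313 CPM in HFD. The groups overlapped, since HFD 2 was above all Chow libraries, and the log2 change was -0.16 (95% confidence interval -0.40 to 0.08, adjusted p = 0.408).

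*Ass1*, argininosuccinate synthase, lies on chromosome 2 at 31470207 to 31520672. It was at 2739, 2587, 2602 and 2420 CPM in Chow and at 2003, 2305, 1572 and 1831 CPM in HFD. The groups did not overlap, and the level fell by 26.1% (log2 change -0.44, SE 0.167, adjusted p = 0.109). *Ass1* shares 43.1% of its 31-base words with other genes, mostly the pseudogene *Gm5424*, so its level is uncertain. *Gm5424* itself was given at most 5.12 CPM in any library. *Asl*, argininosuccinate lyase, was at 380, 334, 364 and 375 CPM in Chow and at 269, 324, 263 and 360 CPM in HFD. HFD 4 lay within the Chow range, and the level fell by 16.8% (log2 change -0.27, SE 0.103, adjusted p = 0.113).

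*Arg1*, the arginase that releases urea, lies on chromosome 10 at 24915221 to 24927484. It was at 893, 786, 868 and 881 CPM in Chow and at 654, 680, 669 and 622 CPM in HFD. The groups stood well apart, and the level fell by 23.3% (log2 change -0.38, SE 0.0794, adjusted p = 0.00739). The summed level of the 5 enzymes was 7736 ± 892 CPM in Chow and 5151 ± 738 CPM in HFD, with the highest HFD library (5946 CPM) below the lowest Chow library (6885 CPM).

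Among the other 5 genes, *Tat*, which starts tyrosine breakdown and lies on chromosome 8, differed most. It was at 1688, 1255, 1247 and 1435 CPM in Chow and at 694, 701, 394 and 378 CPM in HFD. All HFD libraries were below all Chow libraries, and the level fell by 62.8% (log2 change -1.43, SE 0.306, adjusted p = 0.00885). *Hal*, the histidase that deaminates histidine, was at 312, 241, 306 and 329 CPM in Chow and at 235, 191, 146 and 145 CPM in HFD. The groups met closely at 241 and 235 CPM without overlapping, and the level fell by 40.5% (log2 change -0.75, SE 0.191, adjusted p = 0.0208). *Gls2*, the liver glutaminase that frees ammonia for CPS1, was at 243, 235, 243 and 241 CPM in Chow and at 209, 217, 182 and 210 CPM in HFD. The Chow libraries hardly varied, and the level fell by 15.2% (log2 change -0.24, SE 0.0970, adjusted p = 0.131).

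*Sds*, which deaminates serine, ranged from 68.6 to 101 CPM in Chow and from 63.8 to 118 CPM in HFD, with a log2 change of 0.11 (95% confidence interval -0.21 to 0.44, adjusted p = 0.689). *Got1*, the cytosolic aspartate aminotransferase, ranged from 182 to 245 CPM in Chow and from 147 to 202 CPM in HFD, with a log2 change of -0.25 (-0.57 to 0.07, adjusted p = 0.316). Neither was called. The span of *Sds* overlaps those of *Plbd2* and *Gm15690*, and that of *Gls2* overlaps *Spryd4*, each on the opposite strand. Whether their exons overlap was not examined. Whether the counting used strand is not given in the sources used here, so whether reads of any shared exon were told apart is not known. In all, 6 genes (*Cps1*, *Ass1*, *Arg1*, *Hal*, *Gls2* and *Tat*) had every HFD library below every Chow library, against 7.76% of all genes.

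With library totals in place of TMM factors the median log2 change of all genes was 0.287. Under that scaling 38% of all genes were called, and 92.1% of those calls were higher. It left 4 calls among the 10 genes, *Cps1*, *Hal* and *Tat* lower and *Sds* higher. The calls of *Ass1*, *Asl*, *Arg1* and *Gls2* ended, and the changes of *Otc*, *Asl*, *Gls2* and *Got1* turned positive. Relative to that median 9 of the 10 genes were lower. Taking off the median largely restores the TMM scaling, so this count is no separate evidence, and it was added after the data had been seen. The library totals include *Gm42418*, which held from 13.4% to 22.7% of counts in Chow and at most 15.6% in HFD. Its part in the results with library totals was not tested. Without HFD 3 the calls of *Ass1* (adjusted p = 0.273), *Asl* (0.293) and *Gls2* (0.320) were lost and 4 of the 10 were left. Without HFD 1 that of *Asl* (0.271) was lost, and without HFD 2 *Otc* (0.126) was also called lower and *Sds* (0.171) higher. The share of all genes called was 21.3% without HFD 3, 22.4% without HFD 1 and 26.6% without HFD 2.

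**Figure D2:**
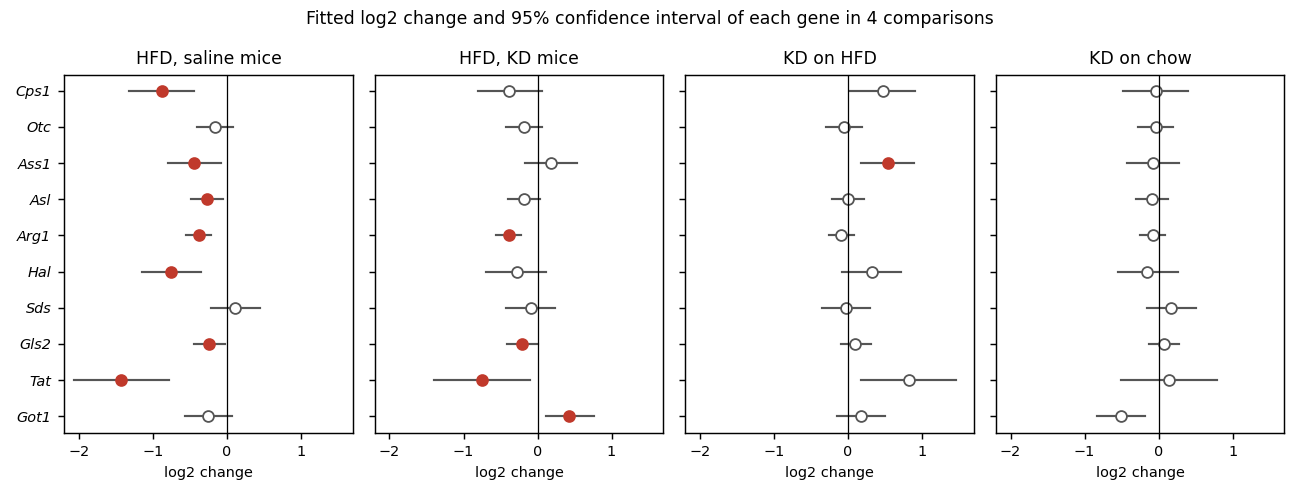
Fitted log2 change (x axis) with its 95% confidence interval for each gene (y axis) in 4 comparisons, with called genes as filled red points and the others as open points. The HFD comparison in saline mice holds 7 filled points, all below 0, the comparison in KD mice 4, KD on HFD 1 (*Ass1*) and KD on chow none.

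The same diets were then compared under FGFR4 KD, in 8 libraries that share none with the comparison above. Here 4 of the 10 genes were called, *Arg1*, *Tat* and *Gls2* lower and *Got1* higher, against 20.2% of all genes (10.1% lower and 10.1% higher). At an adjusted p under 0.05 there was 1, *Arg1*, against 3.1% of all genes. The median log2 change of the 10 was -0.19, against -0.009 over all genes. *Arg1* was at 840, 834, 863 and 704 CPM in Chow/FGFR4 KD and at 655, 569, 609 and 636 CPM in HFD/FGFR4 KD. The groups did not overlap, which held for 5.61% of all genes in this direction, and the level fell by 23.7% (log2 change -0.39, SE 0.0789, adjusted p = 0.0165).

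*Tat* was at 827, 1258, 1997 and 2633 CPM in Chow/FGFR4 KD and at 1113, 628, 1204 and 827 CPM in HFD/FGFR4 KD. The Chow/FGFR4 KD libraries spread 3.19-fold, the widest of any gene and group here, and the groups overlapped. The log2 change was -0.75 (SE 0.307, adjusted p = 0.181), and without Chow/FGFR4 KD 4, the library with high *Saa2*, it was -0.48 and not called (adjusted p = 0.423). *Gls2* was at 237, 244, 287 and 248 CPM in Chow/FGFR4 KD and at 253, 184, 207 and 240 CPM in HFD/FGFR4 KD. These groups overlapped at HFD/FGFR4 KD 1 and 4, and the log2 change was -0.21 (SE 0.0970, adjusted p = 0.242). *Got1* was at 171, 164, 112 and 158 CPM in Chow/FGFR4 KD and at 255, 160, 200 and 204 CPM in HFD/FGFR4 KD. Only HFD/FGFR4 KD 2 lay within the chow-fed range, and the level was 1.35-fold higher on HFD (log2 change 0.43, SE 0.154, adjusted p = 0.128).

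The genes not called in KD mice included *Cps1* and *Hal*. *Cps1* was at 3483, 3250, 4040 and 3030 CPM in Chow/FGFR4 KD and at 3825, 1772, 2644 and 2736 CPM in HFD/FGFR4 KD. HFD/FGFR4 KD 1 lay among the chow-fed libraries and the other HFD-fed libraries below them, and the log2 change was -0.38 (95% confidence interval -0.81 to 0.06, adjusted p = 0.329). Without HFD/FGFR4 KD 1 the log2 change of *Cps1* was -0.55 and it was called (adjusted p = 0.110), as was *Otc* (log2 change -0.26, adjusted p = 0.189). *Hal* differed by -0.28 on the log2 scale (-0.69 to 0.12), *Asl* by -0.18 (-0.40 to 0.04), *Otc* by -0.18 (-0.42 to 0.06), *Sds* by -0.09 (-0.42 to 0.24) and *Ass1* by 0.18 (-0.17 to 0.53).

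With library totals, where 20.1% of all genes were called, 1 call was left, *Got1*, and *Arg1* was no longer called (adjusted p = 0.286). The call of *Gls2* was lost in 8 of 11 other settings, among them edgeR (adjusted p = 0.273) and DESeq2 (0.263), and in 6 of the 8 fits that left out a library. Among these was the fit without Chow/FGFR4 KD 4 (log2 change -0.22, adjusted p = 0.306). In the 8 fits that left out a library the call of *Tat* was lost in 4 and that of *Got1* in 2 (without Chow/FGFR4 KD 3 or HFD/FGFR4 KD 1). Without HFD/FGFR4 KD 1 the log2 change of *Got1* was 0.32 (limma-voom, unadjusted p = 0.0527, adjusted p = 0.23). Between 1 (without Chow/FGFR4 KD 3) and 5 (without HFD/FGFR4 KD 1) of the 10 genes were called, where 16.9% and 22.3% of all genes were.

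Whether the diet effect differed between saline and KD mice was tested directly, by the interaction, which is also the difference between the KD effects on the 2 diets. None of the 10 genes was called (limma-voom), against 0.0353% of all genes. At an unadjusted p under 0.05 there were 2, *Got1* (log2 difference 0.68, SE 0.217, adjusted p = 0.571) and *Ass1* (0.62, SE 0.236, adjusted p = 0.671), against 6.76% of all genes. For *Arg1* the difference was close to 0, with an interval of -0.24 to 0.23. The intervals were wide for *Cps1* (-0.12 to 1.12), *Hal* (-0.10 to 1.03) and *Tat* (-0.24 to 1.59). So a call in saline mice without one in KD mice was not shown to be a difference between them. With DESeq2, *Got1* was called (adjusted p = 0.243), and without HFD/FGFR4 KD 2, *Ass1* (adjusted p = 0.223).

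With FGFR4 KD on HFD, 1 of the 10 genes was called. This comparison shares the 4 HFD libraries with the comparison of diets in saline mice and the 4 HFD/FGFR4 KD libraries with that under KD. *Ass1*, at 2003, 2305, 1572 and 1831 CPM in HFD, was at 3126, 1869, 3126 and 3225 CPM in HFD/FGFR4 KD. In 3 KD libraries it was above every HFD library, and HFD/FGFR4 KD 2 lay within the HFD range. The level was 1.45-fold higher (log2 change 0.54, SE 0.167, adjusted p = 0.218). Of all genes tested, 3.14% were called and 1.5% were called higher. None of the 10 passed an adjusted p of 0.05, against 0.274% of all genes, and none had groups that did not overlap, against 6.49%. The median log2 change of the 10 genes was 0.14, against 0.004 over all genes.

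At an unadjusted p under 0.05 there were 3, *Ass1*, *Tat* and *Cps1*, against 11% of all genes, but *Tat* and *Cps1* did not pass the adjusted threshold. *Tat*, at 378 to 701 CPM in HFD, was at 628 to 1204 CPM in HFD/FGFR4 KD, where 3 of 4 libraries were above every HFD library (log2 change 0.82, 95% confidence interval 0.17 to 1.46, adjusted p = 0.323). *Cps1*, at 1459 to 2343 CPM in HFD, was at 1772 to 3825 CPM, again with 3 of 4 KD libraries above every HFD library (log2 change 0.47, 0.03 to 0.90, adjusted p = 0.415). In both genes the KD library that lay within the HFD range was HFD/FGFR4 KD 2. For *Hal* the log2 change was 0.32 (-0.08 to 0.72), for *Got1* 0.18 (-0.15 to 0.50) and for *Gls2* 0.10 (-0.10 to 0.31).

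The other 4 genes had log2 changes near 0 with KD on HFD. *Asl* was at 304 ± 46.3 CPM in HFD and at 302 ± 24.7 CPM in HFD/FGFR4 KD, with an interval of the log2 change from -0.22 to 0.22. *Arg1* was at 656 ± 25.1 and 617 ± 37.4 CPM (-0.26 to 0.08), *Otc* at 313 ± 53.3 and 300 ± 37.4 CPM (-0.30 to 0.19) and *Sds* at 92.4 ± 22.4 and 88.6 ± 6.46 CPM (-0.35 to 0.29). None of the 4 was called.

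The call of *Ass1* was not stable. It was lost with library totals (adjusted p = 0.432), in a fit of the HFD and HFD/FGFR4 KD libraries alone (0.328), with the replicate number as a block (0.292), and without any 1 of HFD 1 (0.319), HFD 3 (0.492), HFD 4 (0.329), HFD/FGFR4 KD 1 (0.438), HFD/FGFR4 KD 3 (0.428) or HFD/FGFR4 KD 4 (0.455), which left 0 of the 10 called. Without HFD/FGFR4 KD 2, which had the lowest level of its group in 8 of the 10 genes, 4 were called higher (*Ass1* adjusted p = 0.0288, *Cps1* 0.171, *Hal* 0.181, *Tat* 0.219), and without HFD 2, *Ass1* (0.130) and *Tat* (0.219). The share of all genes called was 3.97% without HFD/FGFR4 KD 2 and 5.33% without HFD 2, and between 0.784% (without HFD 3) and 2.29% (without HFD 4) in the 6 fits that lost the call of *Ass1*. Marker sums of other cells also differed between these groups. Those of 7 adipocyte markers were 45.8 to 116 CPM in HFD and 14.2 to 43.4 CPM in HFD/FGFR4 KD, and those of 7 lymphocyte markers 1.82 to 2.18 and 0.221 to 1.33 CPM, without overlap in either. Of these, 3 adipocyte markers and 0 lymphocyte markers passed the filter on low counts. The lymphocyte sums therefore rest on few counts. Stellate cell and fibroblast markers (163 to 320 and 115 to 208 CPM) and endothelial markers (142 to 165 and 117 to 145 CPM) overlapped, as did macrophage markers (143 to 259 and 122 to 214 CPM). Their part in the level of *Ass1* was not tested.

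**Figure D3:**
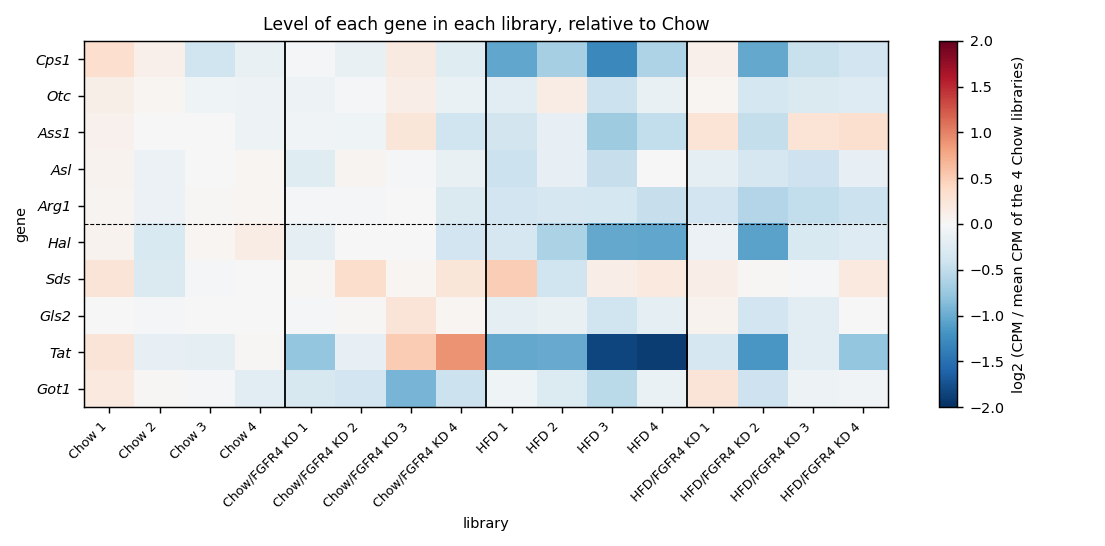
Level of each gene (rows) in each library (columns) as log2 of its CPM over the mean CPM of the 4 Chow libraries, from blue (lower) through white to red (higher); the dashed line separates the urea cycle enzymes from the others. HFD/FGFR4 KD 1 had the highest level of its group in 6 of the 10 genes, and HFD/FGFR4 KD 2 the lowest in 8.

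With FGFR4 KD on chow, none of the 10 genes was called (limma-voom), where 0.00883% of all genes, that is 1, was called. At an unadjusted p under 0.05 there was 1 of the 10, against 4.58% of all genes. That gene was *Got1*, which was at 245, 218, 210 and 182 CPM in Chow and at 171, 164, 112 and 158 CPM in Chow/FGFR4 KD. Every KD library was below every Chow library, as for 1.18% of all genes in this direction, with a log2 change of -0.51 (SE 0.154, adjusted p = 0.976). The same Chow/FGFR4 KD values of *Got1* enter its higher call on HFD under KD and its difference between the KD effects, so these are not separate observations. KD on chow also shares the Chow libraries with the comparison of diets in saline mice. The urea cycle enzymes differed by between -0.09 (*Asl*, 95% confidence interval -0.31 to 0.13) and -0.04 (*Cps1*, -0.48 to 0.40, and *Otc*, -0.28 to 0.20) on the log2 scale. Their summed level, 7736 ± 892 CPM in saline mice, was 7415 ± 975 CPM in KD mice. *Tat* differed by 0.14 (-0.51 to 0.79; -0.128 without Chow/FGFR4 KD 4), *Sds* by 0.17 (-0.16 to 0.50), *Gls2* by 0.07 (-0.13 to 0.28) and *Hal* by -0.15 (-0.55 to 0.26). The interval of *Arg1* (-0.25 to 0.08) did not reach the fitted change with diet in saline mice (-0.38), and that of *Cps1* did not reach its own (-0.88). Those diet changes had intervals of -0.55 to -0.22 and -1.32 to -0.44, which overlapped the intervals with KD on chow. The effects of diet and KD were not tested against each other. No alternative fit called any of the 10 genes in this comparison.

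Whether the enzymes of the cycle kept their proportions was examined with ratios of the counts of neighbouring steps within a library. Such a ratio is free of the scaling factor, and it was chosen after the data had been seen. The *Cps1*/*Otc* count ratio was 12.0, 10.7, 8.32 and 10 in Chow and 5.87, 5.86, 5.69 and 7.5 in HFD. The groups did not overlap, and the geometric mean was 10.2 in Chow and 6.19 in HFD (log2 difference -0.72, exact 2-sided permutation test p = 0.0286, adjusted p = 0.152 over 16 tests). The smallest p that 4 against 4 libraries allow is 0.0286. In HFD/FGFR4 KD the ratio was 10.8, 6.54, 9.30 and 9.46, with 3 libraries above all HFD libraries (geometric mean 8.88, exact permutation p = 0.0571, adjusted p = 0.229).

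The *Otc*/*Ass1* count ratio was 0.149, 0.167, 0.163 and 0.171 in HFD and 0.113, 0.145, 0.0910 and 0.0896 in HFD/FGFR4 KD. No KD library reached an HFD library (log2 difference -0.59, exact permutation p = 0.0286, adjusted p = 0.152). In Chow this ratio was 0.126 to 0.138, below every HFD library (log2 difference 0.28, exact permutation p = 0.0286, adjusted p = 0.152). *Ass1*/*Asl* and *Asl*/*Arg1* overlapped between the groups in all 4 comparisons. With KD on chow the adjusted p of the 4 ratios was from 0.914 to 1 (exact permutation tests).

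**Figure D4:**
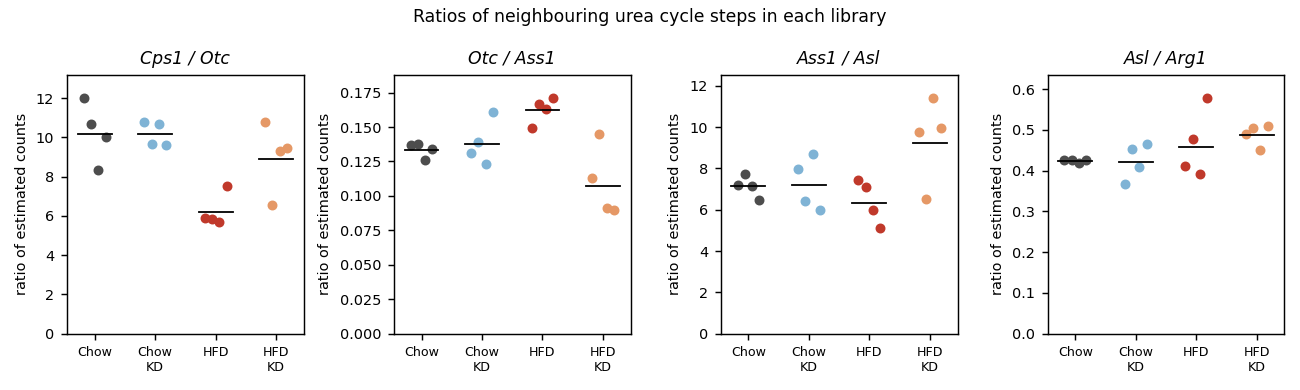
Ratio of the estimated counts of neighbouring urea cycle enzymes in each library (points) by group, with the geometric mean of 4 libraries as a bar. The HFD libraries have *Cps1*/*Otc* ratios of 5.69 to 7.5, below all Chow libraries, and *Otc*/*Ass1* ratios above all libraries of Chow and of HFD/FGFR4 KD.

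Over the 16 libraries the 45 pairs of members had Pearson correlations of log2 CPM from -0.31 (*Otc* and *Sds*) to 0.86 (*Cps1* and *Gls2*). With group means removed the range was -0.33 to 0.82, with *Cps1* and *Otc* highest. These libraries share diet, treatment and scaling factors, so the correlations are descriptive. Among 8387 other genes with a mean of at least 5 CPM, those whose pattern was most like that of *Cps1* included *Swt1* (r = 0.928), *Acmsd* (0.921), *Aldh1l1* (0.920) and *Cyp1a2* (0.918). The 5 most like the mean z-score of the 10 genes were *Ivd* (0.933), *Aldh1l1* (0.929), *Cyp1a2* (0.925), *Dbt* (0.906) and *F7* (0.903), all over 16 libraries. *Acmsd* acts in tryptophan catabolism, *Aldh1l1* in folate metabolism, and *Ivd* and *Dbt* in branched-chain amino acid catabolism. *Cyp1a2* is on the pericentral list used below, and *Swt1* and *F7* are on none of the related lists.

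Of 153 related genes on 11 lists, 142 were tested. On HFD in saline mice 25 of them were called higher and 35 lower, and under KD 41 higher and 20 lower. Of all genes tested, 13.3% were called higher and 12.7% lower in saline mice, and 10.1% in each direction under KD. KD on HFD called 8 higher and 4 lower, KD on chow none, and the difference between the KD effects 1. The shares of all genes called were 3.14%, 0.00883% and 0.0353% in these comparisons. Each list below is to be read against these shares, and no test of a list was run. Some genes stand on more than 1 list and their calls count in each. Examples are *Got2* and *Glud1* (urea cycle partners and the glutamine list) and *Oat* (urea cycle partners and pericentral genes). Others are *Glul* (the glutamine list and pericentral genes) and *Pck1* (glucocorticoid response and periportal genes). Without HFD/FGFR4 KD 1, 3 of the 12 calls with KD on HFD were left (*Cyp7a1*, *Cdh1* and *Arntl*), and those of *Acmsd* (adjusted p = 0.348), *Cebpb* (0.291), *Got2* (0.343), *Ftcd* (0.389), *Rnase4* (0.470), *Cyp27a1* (0.415), *Clock* (0.396), *Per2* (0.252) and *Dbp* (0.490) were lost. Of the 61 calls for HFD under KD, 53 were left without HFD/FGFR4 KD 1 and 45 without Chow/FGFR4 KD 4. Among partners of the urea cycle, *Nags*, which makes the obligate activator of CPS1, differed by -0.33 on the log2 scale in saline mice on HFD. *Slc25a15*, the mitochondrial ornithine carrier, differed by -0.29, the mitochondrial aspartate aminotransferase *Got2* by 0.34 and the channel *Aqp9* by 0.30, so that 2 of 11 tested partners were called in each direction. Under KD, 4 of the 11 were called, all higher on HFD, among them *Glud1* (0.28), which releases ammonia from glutamate, and *Oat* (1.03), ornithine aminotransferase; without Chow/FGFR4 KD 4 the calls of the other 2, *Car5a* (adjusted p = 0.257) and *Aqp9* (0.284), were lost. With KD on HFD, *Got2* was called lower (-0.26, adjusted p = 0.166).

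Enzymes of glutamine, glutamate, alanine, aspartate and proline metabolism were called only higher on HFD in both diet comparisons. On HFD 5 of 11 were called higher and none lower in saline mice, with a median log2 change of 0.17 against 0.007 over all genes, and 7 of 11 higher and none lower under KD (median 0.32 against -0.009). *Glul*, the glutamine synthetase that takes up ammonia left over by the cycle, rose from 673 ± 59.0 CPM in Chow to 1139 ± 88.8 CPM in HFD (log2 change 0.76, adjusted p = 0.000577). It rose from 616 ± 59.9 CPM in Chow/FGFR4 KD to 1070 ± 125 CPM in HFD/FGFR4 KD (0.79, adjusted p = 0.000711). The aminotransferases *Gpt2* (0.53) and *Agxt2* (0.62) were also called higher in saline mice.

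Enzymes of phenylalanine, tyrosine and tryptophan catabolism were called lower in 5 of 15 cases and higher in 1 in saline mice on HFD. *Acmsd* (-1.69), *Afmid* (-1.03) and *Aadat* (-0.87), all of the tryptophan pathway, and *Qdpr* (-0.39), which regenerates the cofactor of phenylalanine hydroxylase, were lower, and *Pcbd1* (0.21) was higher. Under KD only 1 of the 15 was called lower on HFD (*Afmid*) and 1 higher. Of the 15, *Acmsd* was called higher with KD on HFD (1.22, adjusted p = 0.167). Of 11 tested enzymes of histidine, serine, threonine and glycine catabolism, *Gcat* (-0.91) and *Agxt* (-0.39) were called lower and *Uroc1* (0.35), the enzyme after HAL, higher in saline mice on HFD. Under KD 3 of these 11 were called higher on HFD and 3 lower. With KD on HFD, *Ftcd*, a later enzyme of histidine breakdown, was called lower (-0.30, adjusted p = 0.240). Among 21 enzymes of branched-chain amino acid and lysine catabolism 3 were called higher and 4 lower in saline mice on HFD (*Acadsb* -0.62, *Ivd* -0.49, *Bckdhb* 0.55), and 8 higher and 2 lower under KD. Of 12 amino acid transporters 2 were called in each direction in both diet comparisons, with the glutamine carrier *Slc38a2* lower in both (-0.83 and -0.97). Of all genes, 13.3% were called higher and 12.7% lower in saline mice, and 10.1% in each direction under KD.

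Of 17 regulators of amino acid catabolism, 6 were called lower and 1 higher in saline mice on HFD, against 12.7% and 13.3% of all genes. The insulin receptor substrates *Irs2* (-1.09) and *Irs1* (-0.72), the hepatocyte factor *Hnf4a* (-0.44) and the CREB-family factor *Creb3l3* (-0.23) were lower, and *Cebpa* (0.25) was higher. Under KD 1 was called lower (*Irs2* -1.30) and 2 higher on HFD. *Cebpb*, a C/EBP factor, was called higher with KD on HFD (1.32, adjusted p = 0.160). Of 12 glucocorticoid and cAMP response genes, 5 were called lower in each diet comparison, among them the member *Tat*, already counted above. Others were *Igfbp1* (-2.23 in saline and -2.32 in KD mice) and *Pck1* (-0.65 and -0.51), the rate-limiting enzyme of gluconeogenesis. The glucocorticoid target *Fkbp5* was called higher in saline mice on HFD (1.06, adjusted p = 0.0797). None of the 12 was called with KD on HFD.

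Zonation lists were compared as well. Of 16 periportal genes, 4 of them members, 8 were called lower and 1 higher in saline mice on HFD, and 5 lower and 2 higher under KD. The lower calls include the members *Arg1*, *Hal* and *Gls2* in saline mice and *Arg1* and *Gls2* under KD, which were already counted above. *Cyp2f2*, a periportal cytochrome, was at 1124 ± 134 CPM in Chow and 627 ± 9.00 CPM in HFD (-0.83, adjusted p = 0.000618). The adhesion gene *Cdh1* was lower on HFD in saline mice (-1.62) and was called higher with KD on HFD (1.54, adjusted p = 0.0180). *Hsd17b13* was the 1 periportal gene called higher on HFD in saline mice (0.59). Of 16 pericentral genes, 4 were called higher and 2 lower in saline mice (*Lect2* 0.84, *Gulo* 0.37, *Cyp1a2* -1.67 and *Cyp27a1* -0.53 beside *Glul*). Under KD 9 were called higher and 1 lower, which include *Cyp7a1* (2.72), the rate-limiting enzyme of bile acid synthesis. KD on HFD called *Cyp7a1* (2.45, adjusted p = 0.00276), *Rnase4* (0.82) and *Cyp27a1* (0.32) higher. *Cyp7a1* was the 1 related gene with a called difference between the KD effects (3.01, adjusted p = 0.0764).

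**Figure D5:**
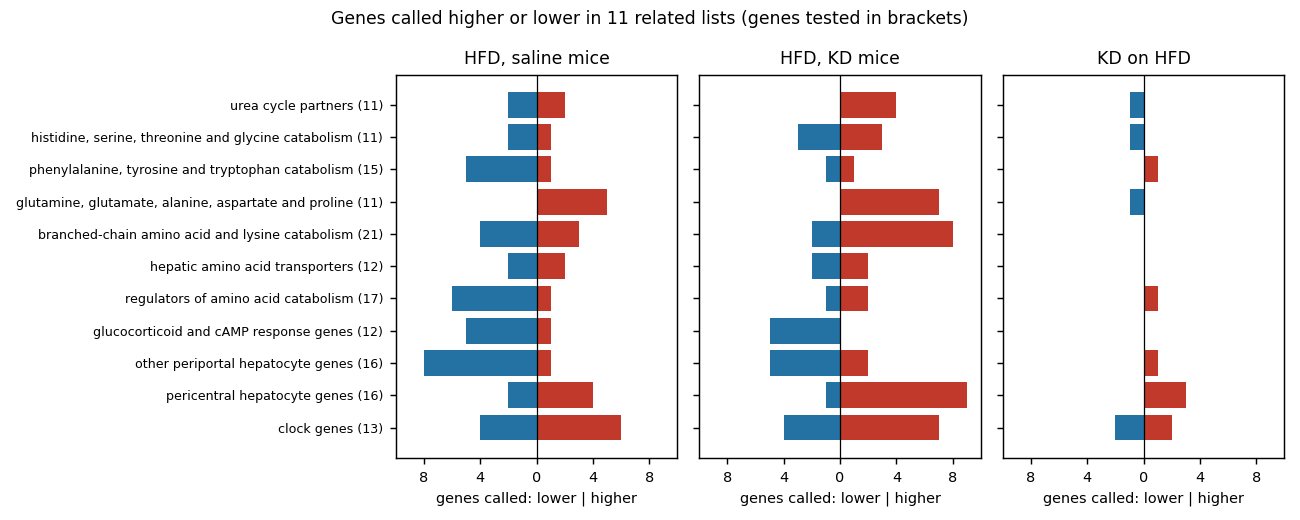
Number of genes called lower (blue, to the left) and higher (red, to the right) in each of 11 related lists, with the number tested in brackets, for the 2 diet comparisons and for KD on HFD. The glutamine and glutamate list has bars to the right in both diet comparisons (5 and 7), and the periportal list has its longer bar to the left (8 and 5). The periportal bars include called genes that are also members. Genes that stand on several lists count in each of their bars.

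Clock genes and markers of other cells moved with diet beside the members. Of 13 clock genes tested, 6 were called higher and 4 lower in saline mice on HFD (*Dbp* 4.32, *Per3* 2.64, *Arntl* -2.09, *Clock* -1.08), and 7 higher and 4 lower under KD. KD on HFD called *Arntl* (1.55) and *Clock* (0.53) higher and *Per2* (-0.85) and *Dbp* (-1.09) lower. The summed level of 7 hepatocyte markers was 65095 to 73706 CPM in Chow and 63958 to 75056 CPM in HFD and overlapped. Sums of 10 macrophage markers were 84.3 to 88.9 CPM in Chow and 143 to 259 CPM in HFD. Those of 9 stellate cell and fibroblast markers were 99.8 to 145 and 163 to 320 CPM. Those of 7 adipocyte markers, of which 3 passed the filter on low counts, were 4.97 to 29.2 and 45.8 to 116 CPM, with *Lep* at 0 in every library. Erythroid markers (273 to 525 and 512 to 932 CPM) overlapped, as did endothelial markers (127 to 177 and 142 to 165 CPM). Of 5 kidney markers, 4 were at 0 in every library. The part of the clock genes and of these cells in the differing levels of the members was not tested.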

How the data were processed

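The deposited table holds estimated counts per Ensembl gene, which the authors made from liver poly(A) libraries (KAPA mRNA HyperPrep) by trimming with fastp, pseudoalignment with kallisto and summing over transcripts with tximport, in GRCm38 per the labels. The methods of the study name HTG EdgeSeq mRNA sequencing and not this kit, and which was used could not be settled here. The transcriptome release, versions and strand setting are not given in the sources used here. Of 52143 rows, 27199 were at 0 in every library.

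The 10 genes, the related lists and the markers were chosen with earlier results of these data known. Genes under 1 CPM in more than 4 of 16 libraries were left out (11324 kept), counts were scaled by TMM (edgeR 4.0.16; factors 0.836 to 1.17), and group means were fitted to all libraries with limma-voom (limma 3.58.1, R 4.3.3). Adjusted p-values are Benjamini-Hochberg values over all genes tested; a gene was called at p under 0.05 and adjusted p under 0.25, as in the study. CPM values carry the TMM factors. Total counts of 3445949 to 5976449 per library gave the 10 genes between 263 and 22092 counts. The fit was also run on simulated counts in which only HFD/FGFR4 KD held known changes. The outcome of that run is not given here, so it lends no support to the calls. Alternatives used DESeq2 1.42.0 (counts rounded), quasi-likelihood tests of edgeR, 2 other filters, 3 other scalings, no *Gm42418* and *Lars2*, library weights, fits limited to the compared groups, the replicate number as a block, and leaving out each library. Count ratios of neighbouring steps and centring on the median of all genes were added after the data had been seen; ratios were tested by exact permutation (scipy 1.17.1). Related genes were named by rule, at most 4 rising and 4 falling per list and comparison with the smallest p among those called. The 5 genes most like *Cps1*, and the 5 most like the mean z-score of the 10 genes, were chosen by Pearson correlation; 1 of them is not reported here.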

Additional observations from a re-analysis of the deposited data

Results flagged for a closer look

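One library value stood apart from the others of its group. *Ass1* in HFD/FGFR4 KD 2 was at 1869 CPM, the lowest of its group, where the other libraries were at 3126, 3126 and 3225 CPM. Its gap to the nearest of them took 0.927 of the range of the group, above Dixon's 95% critical value for 4 samples. In all, 40 groups of values (10 genes in 4 groups) were looked at, among which chance would give about 2 such values. HFD/FGFR4 KD 2 also had the lowest *Cps1*, *Hal*, *Tat*, *Gls2*, *Got1*, *Otc* and *Arg1* of its group.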

How the results depend on the processing

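Of the 10 genes, 7 were called for HFD in saline mice, 4 under KD, 1 for KD on HFD and none for the difference between the KD effects, and of the related genes 60, 61, 12 and 1. Of all genes tested, 26%, 20.2%, 3.14% and 0.0353% were called in the same order. With library totals the counts were 4, 1, 0 and 0 for the 10 genes, with 7 related genes for KD on HFD and 0 for the difference. The shares of all genes were then 38%, 20.1%, 1.01% and 0%. At an adjusted p under 0.05 the counts of the 10 genes were 4, 1, 0 and 0, with 34, 20, 2 and 0 related genes. The shares of all genes were then 9.2%, 3.1%, 0.274% and 0.00883%. For KD on HFD no gene of the 10 was called (0) in a fit of only the groups compared, where 1.78% of all genes were. Quality weights gave 19 related genes there, with 6.85% of all genes called. Without a filter 2 of the 10 were called under KD, against 6.91% of all genes. DESeq2 called 1 of the 10 and 4 related genes for the difference, against 0.477% of all genes. For KD on chow 0 of the 10 were called by edgeR, DESeq2 and every other setting. The cause of these changes was not tested.

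With the replicate number as a block (replicate block), 7, 3, 0 and 0 of the 10 genes were called in the same order. The shares of all genes were 26%, 20.3%, 2.29% and 0.0177%. The numbers did not pair the libraries: deviations of libraries with the same number had correlations from -0.291 to 0.239, and 3 of 16 libraries were closest to one of their own number.

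Leaving out each library gave 4 to 9 of the 10 genes called for HFD in saline mice, 1 to 5 under KD, 0 to 4 for KD on HFD and 0 to 1 for the difference. The shares of all genes called moved as well. In the same order they were 21.3% to 26.6%, 10.5% to 22.3%, 0.784% to 5.33% and 0.00881% to 0.237%. Related genes called ranged from 2 (without HFD 3) to 22 (without HFD 2) for KD on HFD and from 0 to 2 for the difference.

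Small log2 changes turned sign. With library totals these were *Otc* (0.121), *Asl* (0.013), *Gls2* (0.041) and *Got1* (0.029) for HFD in saline mice, *Sds* (0.067) under KD, *Cps1* (0.011) and *Otc* (0.01) for KD on chow, and *Asl* (-0.032) and *Gls2* (-0.09) for the difference. *Asl* for KD on HFD was 0.001 where genes had to reach 1 CPM in 4 libraries or more, 0.028 with quality weights and 0.004 in the compared groups alone. For the difference, *Otc* (0.001) and *Arg1* (0.013) turned with upper-quartile factors and *Arg1* (0.002) without *Gm42418* and *Lars2*.

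With a library left out, the log2 change for KD on HFD ranged from -0.144 to 0.051 for *Otc*, -0.068 to 0.084 for *Asl* and -0.199 to 0.101 for *Sds*. For KD on chow it ranged from -0.159 to 0.084 for *Cps1*, -0.092 to 0.005 for *Otc*, -0.19 to 0.028 for *Ass1* and -0.128 to 0.428 for *Tat*, and for HFD in saline mice from -0.02 to 0.279 for *Sds*. For the difference it ranged from -0.107 to 0.087 for *Otc*, -0.072 to 0.036 for *Arg1* and -0.039 to 0.116 for *Gls2*. The ratios for KD on chow ranged from -0.1 to 0.08 (*Cps1*/*Otc*), -0.03 to 0.1 (*Otc*/*Ass1*), -0.08 to 0.1 (*Ass1*/*Asl*) and -0.05 to 0.06 (*Asl*/*Arg1*).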
